A study of Mus musculus with 62 samples.

Results

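The clustered protocadherin genes were taken as every gene of mouse chromosome 18 whose symbol in the GENCODE M21 annotation of mm10 begins with Pcdha, Pcdhb or Pcdhg. There were 58 such gene records with 57 symbols among 55450 genes (Pcdha11 has 2 records), 14 of them in the alpha part, 22 in the beta part and 22 in the gamma part. They span chr18:36930184-37841873, which is 911.69 kb. The alpha part lies at chr18:36930184-37187661, the beta part at chr18:37264938-37524479 and the gamma part at chr18:37661793-37841873. A listed site was counted as a protocadherin site when it overlapped 1 of these genes or the 5 kb on either side of it, which gave 690 of the 1743368 sites in 14 tables. The tables hold only sites that passed the window test made before deposit, so the 690 sites show where differences were found and in which direction, and say nothing of the bases between them.

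Clustered protocadherins are cell adhesion molecules best known from neurons, where each cell uses a small set of them as a surface identity that lets its branches recognise each other. In the alpha and gamma parts each gene has its own promoter and a large variable exon for the outer part of the protein, which is spliced to constant exons shared by all genes of that part. The beta genes have variable exons only. A promoter is chosen by chance in most of the genes, through CTCF and cohesin, and unused promoters carry DNA methylation and H3K9me3, whereas the C-type genes at the end of the alpha and gamma parts are used more regularly.

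CUT&Tag, in which an antibody directs a transposase to cut DNA beside a bound protein or mark, was done on haematopoietic stem and progenitor cells (HSPCs) from bone marrow of C57BL/6 mice, enriched on magnetic beads for cells without lineage markers that carry c-Kit. WT mice were Daxx +/+ Cre +/-, Daxx-KO mice were Daxx F/F Cre +/- and double-knockout (DKO) mice were Daxx F/F and Pu.1 F/F with Cre +/-. All of them, WT included, carried the Cre, which in the study's blood-specific line is driven by the interferon-inducible Mx1 promoter and is switched on by injected pI:pC, so that the floxed Daxx exons, and in DKO also Pu.1, are deleted in blood cells and in other cells that answer interferon. Daxx is a chaperone that loads the histone variant H3.3, and Pu.1, encoded by Spi1, is a transcription factor of myeloid and B cells.

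Of 62 libraries, 54 are used here. At 3 weeks post induction (w.p.i.) H3.3, Pu.1, H3K27ac and H3K9me3 were compared between 2 Daxx-KO and 2 WT libraries each. At 8 w.p.i. H3K9me3 and H3K27me3 were compared among 3 libraries per genotype, and at 24 w.p.i. all 5 targets were compared between 2 Daxx-KO and 2 WT libraries each. The 8 DKO libraries of 24 w.p.i. are in none of these tables, and the 8-week table for H3K27me3 of Daxx-KO versus WT was left out because its header names H3K9me3 libraries as controls. No test was made on the sites: they had already been selected by one, and an exact two-sided permutation test could not go below 0.333 with 2 libraries against 2 or 0.100 with 3 against 3. A site is called separate here when every library of the first group lay above, or below, every library of the second. Values are normalized counts, that is reads divided by a constant for each library, and log2 ratios compare group means after adding 1. Fewer cells of a type and less signal per cell cannot be told apart in such bulk material.

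Facts of the whole series that touch these genes were as follows. Within Daxx, the targeted gene, the H3K27ac site at 24 w.p.i. held 113.15 and 93.68 in Daxx-KO against 857.89 and 367.84 in WT, and at 3 w.p.i. 24.22 and 13.59 against 65.55 and 104.81, and Pu.1 at 24 w.p.i. held 0 and 0 against 63.33 and 44.21. H3K27me3 over the Daxx start at 24 w.p.i. was also lower, at 81.37 and 43.24 against 252.07 and 217.03. The other listed sites over the ends of Daxx were higher in Daxx-KO, and no table with DKO lists a site at Daxx or Spi1, so the deletion in DKO could not be read from the sites. In the 3-week H3.3 and Pu.1 tables, WT replicate 2 was shallow, with a mean of 3.06 and 2.75 reads per window of 600 bp against 9.43 to 33.78 in the other libraries, and a median of 7.96 and 11.9 reads per protocadherin site against 55.6 to 104. The mouse of WT replicate 1 is not named in the labels for these tables. Markers of HSPCs had H3K27ac sites at all 7 genes listed at both times, 10 higher and 5 lower in Daxx-KO, then 19 and 7, whereas of 4 neuron markers (Map2, Rbfox3, Snap25, Tubb3) none had one at 3 w.p.i. and Rbfox3 alone had 1, higher, at 24 w.p.i. Lineage depletion is made to remove mature blood cells. The lineage lists used here include Mpo, Elane, Ebf1 and Pax5, whose expression the paper also reports in progenitors. They therefore do not mark mature cells alone. H3K27ac sites at neutrophil genes were 7 higher and 1 lower in Daxx-KO at 3 w.p.i. and 19 higher and 3 lower at 24 w.p.i. Those at erythroid genes were 0 and 6, then 0 and 4, and those at B cell genes 0 and 1, then 3 and 2. Of autosomal H3K27ac sites 41.3% and 42.5% were higher at the 2 times. The part of these shifts in the protocadherin results was not tested.

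Sites were 600 to 2300 bp long, with a median of 800 bp. Variable exons make up 29.0% of the 670.371 kb searched and held 435 of the 690 sites, or 63.0%. Of the 690 sites, 313 (45.4%) held at least one word of 50 bases that recurs among the clustered genes. Only 3 sites consisted of such words over more than 50% of their length. Recurring words also lay outside the variable exons, as over 25.8% of a site near Pcdha8 (chr18:36986901-36987750), and their origin was not tested. Reads from copies of a word, from fusion and antisense records and from both strands cannot be told apart at such places. CUT&Tag reads carry no strand.

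**Figure D1:**
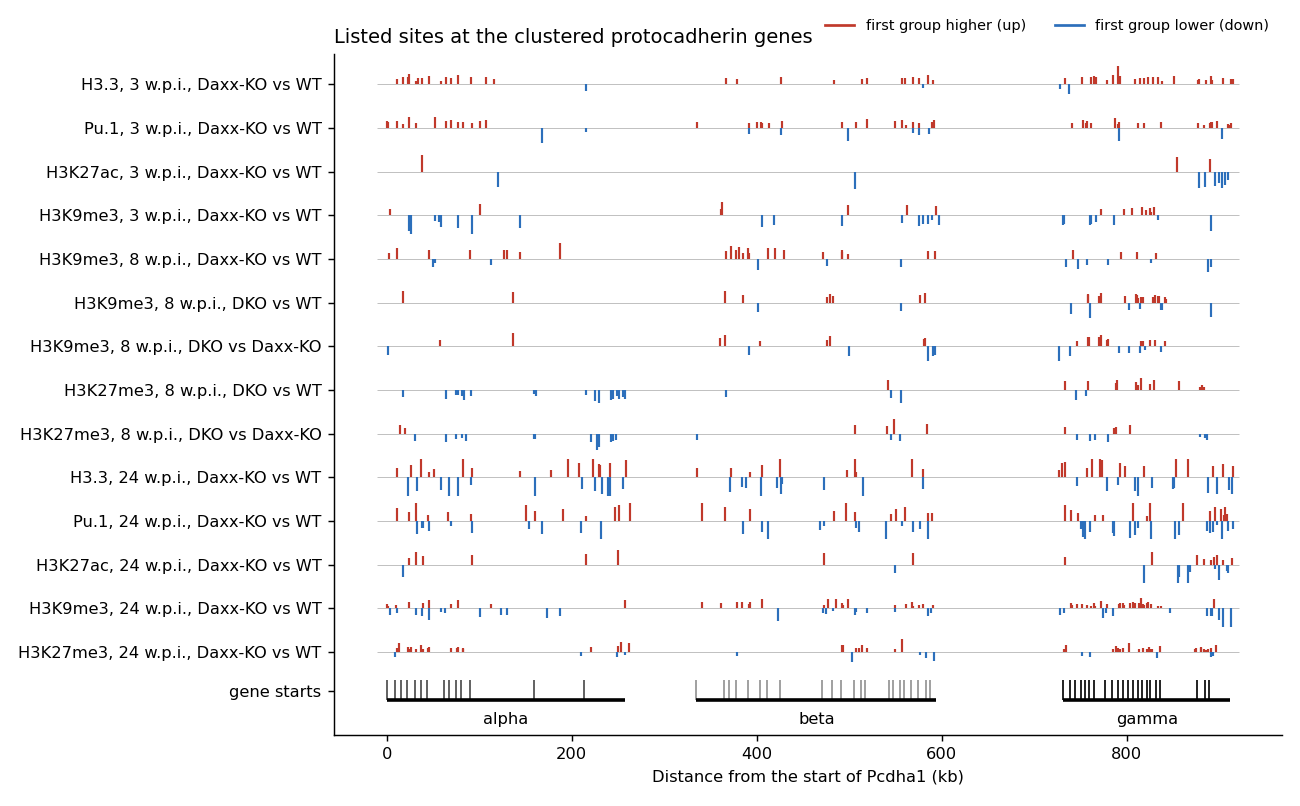
Position of each listed site (kb from the start of Pcdha1) in the 14 comparisons, with red ticks upward for sites higher in the group named first and blue ticks downward for lower ones; tick height follows the log2 ratio up to 4, and the lowest line marks gene starts. Red ticks fill the H3.3 and Pu.1 lines at 3 w.p.i., and the alpha part of H3K27me3 in DKO against WT holds 18 blue ticks and no red one.

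In the map of sites, the 3-week lines of H3.3 and Pu.1 were mostly red. H3.3 was higher in Daxx-KO at 52 of 56 protocadherin sites at 3 w.p.i., 92.9% (Wilson 95% interval 83.0 to 97.2%, counting error only), whereas 58.4% of all autosomal sites of that table were higher. Of the 56 sites, 49 were separate upward and 3 downward, against 57.7% and 40.7% of all autosomal sites. Pu.1 was higher at 51 of 61 sites, 83.6% (72.4 to 90.8%), against 54.9% of autosomal sites, and all 61 were separate, 51 upward and 10 downward, where the table as a whole had 54.1% and 44.0%. Without the shallow WT replicate 2 the shares were 94.6% and 83.6%. The sites were also denser than elsewhere, at 8.35 per 100 kb for H3.3 and 9.10 for Pu.1 against 5.75 and 6.36 across the autosomes.

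At 3 w.p.i. 43 of the 52 sites with higher H3.3 lay in variable exons, where 43 of 44 sites were higher. By class these were 11 of 11 sites of the alternate alpha genes, 12 of 12 of the beta genes, 9 of 9 gamma A, 7 of 7 gamma B and 4 of 4 gamma C-type sites. Outside the exons and starts 4 of 4 alpha, 5 of 7 gamma and 0 of 1 beta sites were higher. The strongest alpha example was the variable exon of Pcdha11 (chr18:37006251-37007700), with 178.46 and 197.49 in Daxx-KO against 73.62 and 10.48 in WT, a log2 ratio of 2.13. The groups did not overlap, although the WT libraries differed widely from each other. Pcdhb8 (chr18:37356401-37357500) had 112.13 and 164.33 against 65.21 and 26.19, a log2 ratio of 1.58. Pcdhgb2 (chr18:37690951-37692450) had 275.59 and 123.8 against 52.59 and 78.58, a log2 ratio of 1.59. In both exons the lower Daxx-KO library still exceeded the higher WT library.

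The 1 variable exon that lost H3.3 was that of Pcdhac2, a C-type gene at the end of the alpha part. There (chr18:37145251-37146250) Daxx-KO had 26.06 and 33.16 and WT 124.1 and 52.39, a log2 ratio of -1.54, with no overlap. The same exon was lower for Pu.1, at 24.42 and 55.12 against 78.35 and 70.32, a log2 ratio of -0.89. No alternate alpha gene had a lower site for H3.3 or Pu.1 at this time. Outside the exons, the largest H3.3 loss was inside the gamma part near Pcdhga2 (chr18:37666851-37667750), at 14.21 and 11.79 against 57.49 and 68.1.

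Summed over the listed sites, H3.3 in the alpha part was 1390.59 and 1634.47 in Daxx-KO against 809.83 and 429.57 in WT. In the beta part it was 1133.92 and 1144.44 against 603.66 and 513.38. In the gamma part it was 2004.11 and 1910.07 against 952.15 and 722.92. The groups did not overlap in any part, and log2 ratios of the sums were 1.29, 1.03 and 1.22, or 0.90, 0.92 and 1.04 without WT replicate 2. Sites were chosen for differing, so these sums describe the listed sites, 15.35, 9.30 and 21.85 kb of them, and not the whole parts.

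Pu.1 was higher at 41 of 48 variable-exon sites at 3 w.p.i. All 11 alternate alpha sites were higher, and the beta genes had 16 higher and 5 lower. Pcdha1, the first alternate gene (chr18:36931251-36932900), had 259.93 and 159.69 against 109.68 and 63.93, a log2 ratio of 1.26. Pcdhb12 (chr18:37436851-37438150) had 214.25 and 242.38 against 102.89 and 70.32, a log2 ratio of 1.39. Pcdhgc3, the first gamma C-type gene (chr18:37806601-37808700), had 186.68 and 170.23 against 89.31 and 73.52, a log2 ratio of 1.12. In all 3 exons the Daxx-KO libraries were separate from WT.

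Among the other lower Pu.1 sites, a site 6321 bp from the start of Pcdhb12 and outside any gene (chr18:37428451-37429300) had 12.6 and 3.24 against 62.15 and 67.12. In the variable exon of Pcdhgb4 (chr18:37721401-37722000) the values were 7.09 and 12.16 against 53.28 and 89.5. An intronic site 7988 bp downstream of the Pcdhac1 start (chr18:37098001-37098600), had 4.73 and 6.48 against 51.19 and 70.32. Of the 61 Pu.1 sites, 11 had a site of the opposite direction within 1 kb in the same table, compared with 0 of 56 for H3.3. The H3.3 and Pu.1 sites at 3 w.p.i. overlapped in 32 pairs, 50.0% of the H3.3 sites and 50.8% of the Pu.1 sites, and 27 pairs pointed the same way, 84.4% against 77.3% of autosomal pairs. With 92.9% of H3.3 and 83.6% of Pu.1 sites higher here, against 58.4% and 54.9% of autosomal sites, these shares of pairs are not alike. The Daxx-KO libraries of both targets came from the same mice.

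Base composition moved with these results. Sites with higher H3.3 had a median of 55.1% G and C bases and lower ones 47.1%, and the Pu.1 medians were 54.7% and 46.5%. Among all autosomal sites of the H3.3 table, 90.8% of those with at least 55% G and C were higher in Daxx-KO, but only 34.7% of those under 45%. At the protocadherin genes 28 of 29 H3.3 sites with at least 55% were higher, as were 14 of 14 between 50 and 55%, where the autosomal share was 70.2%, and 8 of 10 between 45 and 50%, where it was 49.8%. For Pu.1 the counts were 24 of 25, 20 of 23 and 4 of 7, beside autosomal shares of 91.3%, 67.8% and 44.7%. The part of base composition, and of the shallow WT library, in these gains was not tested. The bounds of these composition classes were chosen after the values were seen.

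**Figure D2:**
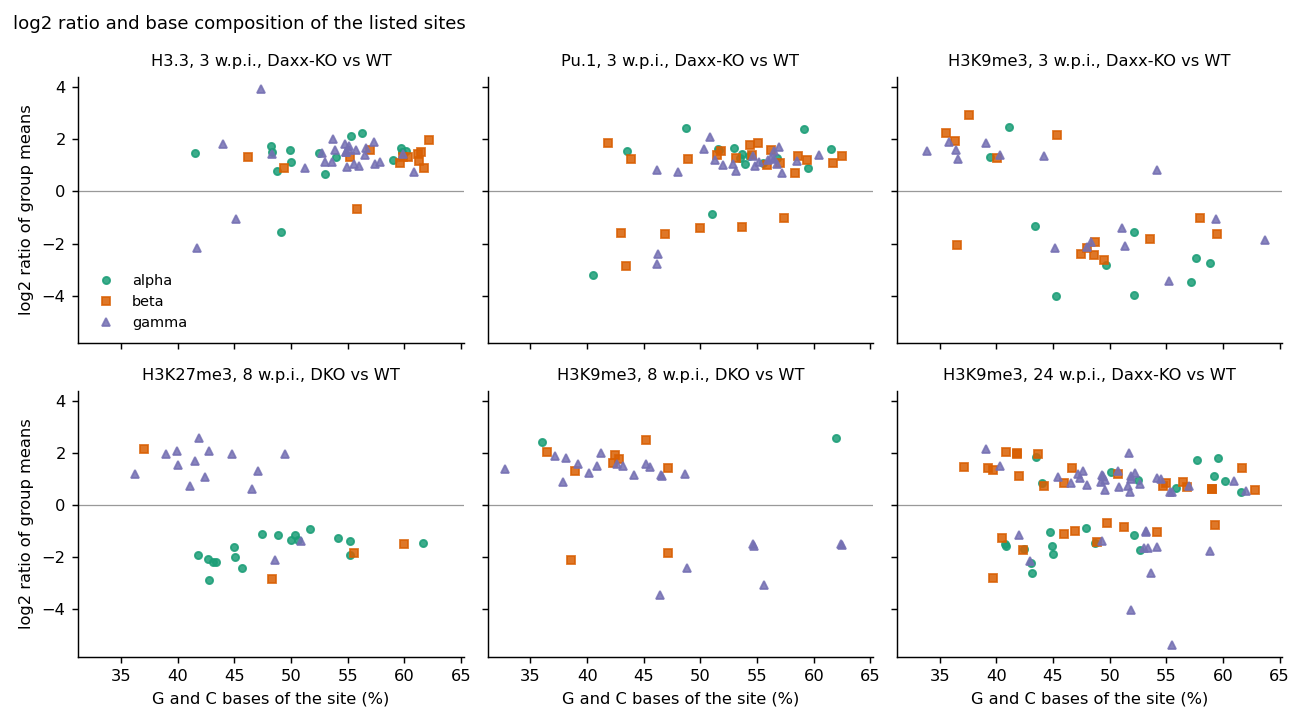
log2 ratio of group means (first group over second, 1 added) against the share of G and C bases of each listed site in 6 comparisons, coloured by alpha, beta or gamma part. At 3 w.p.i. H3K9me3 sites under 45% are mostly above 0 and richer ones mostly below 0, and H3.3 and Pu.1 losses sit mainly at the left. At 24 w.p.i. H3K9me3 gains and losses overlap in composition, with 18 of 21 sites at 55% and over above 0.

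H3K9me3 ran the other way at 3 w.p.i. Of 40 sites 15 were higher and 25 lower in Daxx-KO, so 37.5% (24.2 to 53.0%) were higher, while 78.9% of autosomal sites were. Separate sites numbered 14 upward and 25 downward, against 78.6% and 21.0% of the table. Among variable exons and gene starts 8 sites were higher and 17 lower. Alternate alpha genes had 0 higher and 3 lower, beta genes 2 and 6, gamma A genes 4 and 4, gamma B genes 2 and 3, and the gamma C-type genes 0 and 1. The plot of composition shows how closely the direction followed base content, with 13 of 15 sites under 45% G and C higher and 23 of 25 richer sites lower.

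The genome showed the same slope, as 91.1% of autosomal H3K9me3 sites under 45% G and C were higher in Daxx-KO, 55.7% of those between 45 and 50%, 23.7% between 50 and 55%, and 8.02% above that. The protocadherin sites of these 4 classes were higher in 13 of 15, 1 of 11, 1 of 6 and 0 of 8. Lower sites elsewhere were mostly repeats, with a median of 60.4% of their bases masked, but the lower protocadherin sites had a median of 6.76%. The part of base composition in the 3-week result was not tested.

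In the alpha part the 3-week H3K9me3 sum over listed sites was 70.94 and 78.34 in Daxx-KO against 201.27 and 259.18 in WT. It was 211.64 and 221.66 against 298.4 and 283.53 in the beta part. It was 416.29 and 358.33 against 464.66 and 508.5 in the gamma part. All 3 sums were separate and lower, with log2 ratios of -1.61, -0.42 and -0.33. A site 4621 bp from the start of Pcdha8 (chr18:36986901-36987750) had 17.44 and 25.0 against 49.0 and 78.85, and 1 beside Pcdhb21 (chr18:37509451-37510600) had 10.47 and 8.33 against 30.63 and 48.12. Higher sites included Pcdhga11 at its start (chr18:37756151-37756750), at 104.65 and 78.33 against 48.13 and 54.5, and a stretch between genes near Pcdhb2 (chr18:37290251-37291950), at 91.86 and 81.66 against 43.75 and 27.25.

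Where 3-week sites of H3.3 and H3K9me3 overlapped, 12 of 13 pairs combined higher H3.3 with lower H3K9me3, and the other pair was lower for both. For Pu.1, 13 of 17 pairs combined a gain with a loss of H3K9me3. Pairs across the autosomes pointed the same way in 24.5% of cases for H3.3 and 24.8% for Pu.1. Here 92.9% of H3.3, 83.6% of Pu.1 and 37.5% of H3K9me3 sites were higher. Among autosomal sites 58.4%, 54.9% and 78.9% were. The shares of pairs are therefore not alike, and whether the targets moved together was not tested. The Daxx-KO mice of the H3K9me3 libraries were not those of H3.3 and Pu.1, but WT replicate 2 was the same mouse for all 4 targets.

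By 8 w.p.i. H3K9me3 in Daxx-KO against WT was higher at 28 of 41 sites, 68.3% (53.0 to 80.4%), near the 66.0% of autosomal sites. There were 26 sites separate upward and 12 downward, 63.4% and 29.3%, beside 57.6% and 31.5% in the table. The parts differed in direction. Alpha genes had 8 higher and 3 lower sites, beta genes 16 and 3, and gamma genes 4 and 7.

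Of the beta sites, those in variable exons or at starts were 12 higher and 1 lower, and the others 4 higher and 2 lower. The beta share of 84.2% higher (62.4 to 94.5%) had an interval that held the autosomal 66.0%. That interval takes sites of the same libraries as independent, so it is no test of the difference. Summed beta sites were 350.81, 361.4 and 498.64 in Daxx-KO against 156.42, 216.78 and 201.09 in WT, a log2 ratio of 1.07. Summed gamma sites were 150.08, 207.83 and 173.78 against 273.35, 269.09 and 272.25, a log2 ratio of -0.61. Both sums were separate, in opposite directions, whereas the alpha sums, at 152.39 to 217.89 against 88.57 to 154.05, overlapped. Scaling each library to an equal total over the autosomal sites left 17 separate upward and 13 downward. It moved the log2 ratios of the beta and gamma sums to 0.64 and -1.04. How many autosomal sites stayed separate after this scaling was not computed.

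Among the beta genes, Pcdhb22 (chr18:37522101-37523200) had 37.07, 40.46 and 89.57 in Daxx-KO against 6.32, 8.44 and 29.97 in WT, a log2 ratio of 1.83. The lowest Daxx-KO library exceeded the highest WT library by a small margin. A site between genes near Pcdhb6 (chr18:37330501-37332650) went down, at 16.27, 8.28 and 0 against 39.5, 79.29 and 34.97. In the alpha part Pcdha1 (chr18:36932201-36932800) went up, with 48.82, 33.11 and 26.74 against 19.75, 9.28 and 13.74. In the gamma part the start of Pcdhga11 (chr18:37755601-37756350), which had a higher site at 3 w.p.i., was lower, at 33.45, 46.9 and 33.42 against 79.01, 79.29 and 66.19. At 8 w.p.i. the direction of autosomal sites hardly followed composition, with 64.3% higher under 45% G and C and 73.5% higher at 55% and over.

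At 24 w.p.i. H3K9me3 sites were the most frequent, 93 in all and 13.9 per 100 kb against 6.11 across the autosomes. Of these 59 were higher, 63.4% (53.3 to 72.5%) against 48.1%, with 55 separate upward and 31 downward, beside 46.9% and 50.3% of the table. Gamma A genes had 16 higher and 3 lower sites and gamma B genes 11 and 0, whereas the gamma C-type genes had 0 and 3. Beta genes had 13 and 8 in exons and starts, and alternate alpha genes 8 and 5. Autosomal sites were higher in 33.6%, 53.4%, 64.6% and 73.2% of cases across the composition classes, from under 45% to 55% and over. In the same order protocadherin sites were higher in 13 of 25, 13 of 21, 15 of 26 and 18 of 21. The part of composition in these gains was not tested.

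The gamma sum at 24 w.p.i. was 10651.8 and 8895.61 in Daxx-KO against 5903.97 and 6307.14 in WT, a log2 ratio of 0.68. The beta sum was 2914.93 and 3197.61 against 2182.46 and 2235.75, a log2 ratio of 0.47. Both were separate, and the alpha sums overlapped. Pcdhgb7 (chr18:37752601-37754550) carried the largest difference of group means of the 690 sites, with 1496.36 and 1228.81 against 446.14 and 658.73, a log2 ratio of 1.30. Pcdhb22 (chr18:37519801-37520850) had 673.27 and 696.22 against 391.73 and 492.88, a log2 ratio of 0.63. Of the 34 lower sites 19 lay in variable exons or at starts, where 48 of 67 sites were higher. Outside the exons and starts 7 of 8 alpha sites and 5 of 6 gamma sites were lower.

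**Figure D3:**
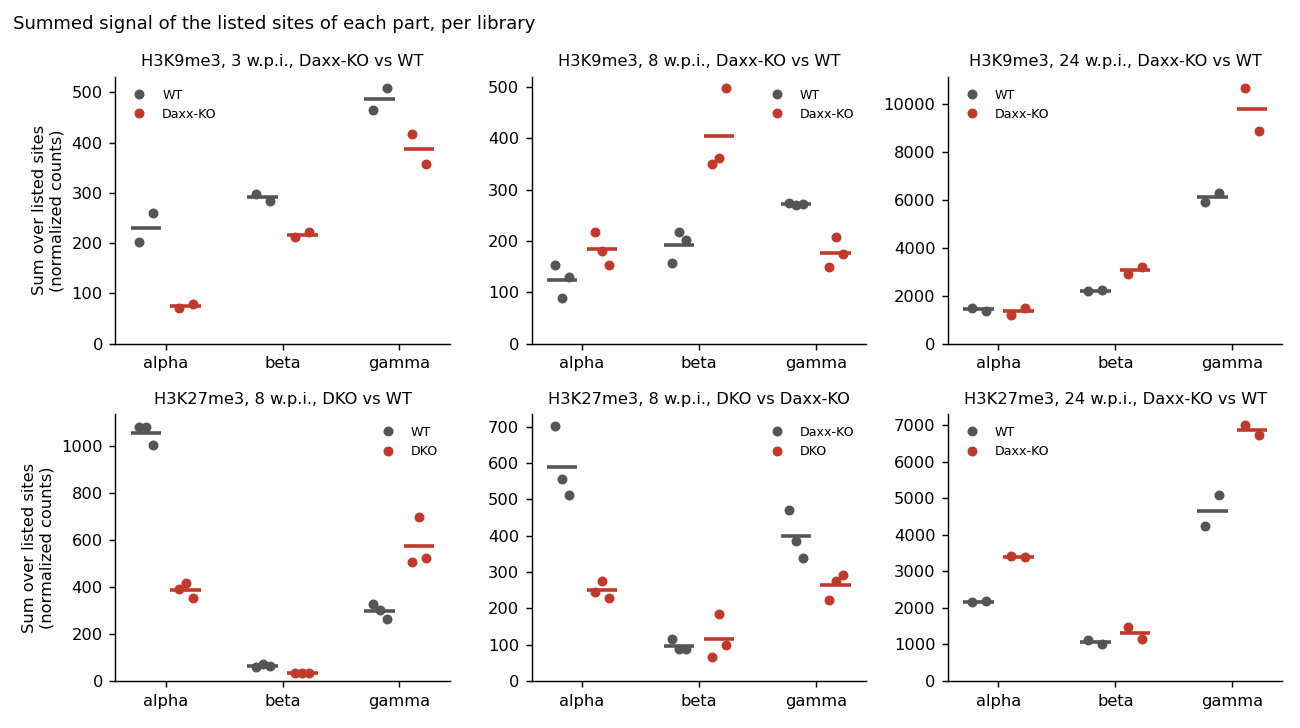
Sum of normalized counts over the listed sites of the alpha, beta and gamma part for each library (points) with the group mean (line), for H3K9me3 (top) and H3K27me3 (bottom); each panel has its own axis from 0. Beta H3K9me3 is lower in Daxx-KO at 3 w.p.i. and higher at 8 and 24 w.p.i., and alpha H3K27me3 is lower in DKO than in both other genotypes and higher in Daxx-KO than in WT at 24 w.p.i.

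Across the 3 times, the plot of sums shows that H3K9me3 of the beta and gamma parts changed direction between tables that hold different mice and different lists of sites. Sites at 3 and 24 w.p.i. overlapped in 23 pairs, of which 11 pointed the same way, or 47.8%, beside 56.8% of autosomal pairs. Of 8 pairs between 3 and 8 w.p.i. 3 did, and of 18 between 8 and 24 w.p.i. 8 did, where autosomal pairs gave 77.9% and 60.0%. For H3.3, 12 of 28 pairs between 3 and 24 w.p.i. pointed the same way and for Pu.1 12 of 31, against 51.2% and 48.1%.

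Pcdhgc5, the last gene of the gamma part and a C-type gene, kept its direction in H3K9me3. It was singled out after its values were seen. At 3 w.p.i. its variable exon (chr18:37820051-37822150) had 2.33 and 6.67 in Daxx-KO against 42.0 and 75.95 in WT, a log2 ratio of -3.45 resting on 2 and 4 reads against 48 and 131. At 8 w.p.i. it (chr18:37820351-37821900) had 16.27, 18.39 and 10.69 against 37.13, 60.73 and 57.45, a log2 ratio of -1.71. At 24 w.p.i. it (chr18:37819801-37821600) had 74.59 and 94.84 against 314.01 and 206.15, a log2 ratio of -1.61. In each of these tables every Daxx-KO library lay below every WT library.

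In DKO against WT at 8 w.p.i. the exon (chr18:37820901-37821750) had 0, 0 and 4.6 in DKO and 13.03, 28.08 and 19.34 in WT, a log2 ratio of -3.06. These came from 0, 0 and 6 reads against 29, 57 and 27, and the WT mice were those of the 8-week Daxx-KO comparison. A second stretch of the exon at 24 w.p.i. (chr18:37821701-37822300) had 6.38 and 20.85 against 41.97 and 55.28. Over the 5 H3K9me3 tables Pcdhgc5 had 5 lower sites and 0 higher in 4 tables. Of the other 57 records, Pcdhga1 had 4 lower and 0 higher in 3 tables and Pcdhb17 3 lower and 0 higher in 3, whereas Pcdhga11 and Pcdhgb8 each had 5 higher and 1 lower in 5 tables. The neighbouring C-type gene Pcdhgc4 had lower sites at 8 w.p.i. (chr18:37817451-37818050), at 1.81, 0 and 0 against 15.8, 6.75 and 7.49, and at 24 w.p.i. (chr18:37816301-37817250), at 14.66 and 22.93 against 74.62 and 45.91.

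The Pcdhgc5 sites had 54.1 to 58.8% G and C. Autosomal H3K9me3 sites between 50 and 55% were higher in Daxx-KO in 23.7% of cases at 3 w.p.i., in 71.3% at 8 w.p.i. and in 64.6% at 24 w.p.i., and those at 55% and over in 8.02%, 73.5% and 73.2%. In the 8-week table of DKO against WT the shares of these classes were 33.3% and 11.8%. The part of composition in the values of Pcdhgc5 was not tested.

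**Figure D4:**
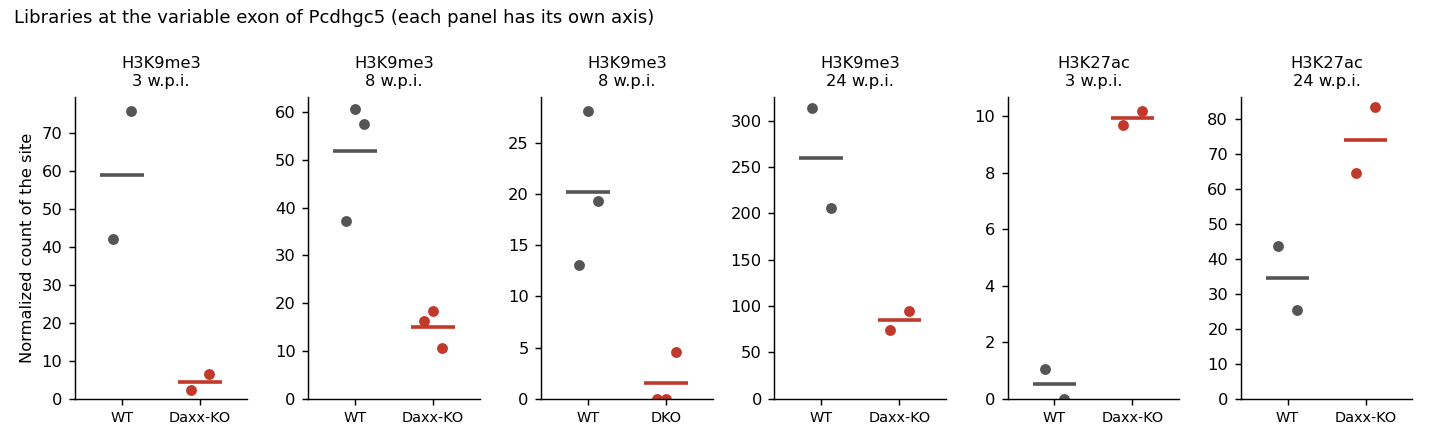
Normalized count of the listed site in the variable exon of Pcdhgc5 for each library (points) with the group mean (line), 4 H3K9me3 comparisons and 2 H3K27ac comparisons, each panel with its own axis from 0. H3K9me3 lies lower in every Daxx-KO or DKO library than in every WT library, and H3K27ac lies higher in Daxx-KO.

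Other targets in the Pcdhgc5 exon, also chosen after their values were seen, moved upward at 3 w.p.i. H3K27ac near its start (chr18:37819751-37820400) had 9.69 and 10.19 in Daxx-KO against 1.07 and 0 in WT, from 10 and 12 reads against 1 and 0. H3.3 (chr18:37821001-37821650) had 52.12 and 58.95 against 26.64 and 5.24, and Pu.1 (chr18:37820201-37820800) had 87.43 and 76.2 against 47.01 and 31.96. At 24 w.p.i. H3K27ac further inside the exon (chr18:37821051-37822000) had 64.44 and 83.43 against 43.56 and 25.31, a log2 ratio of 1.08. These groups did not overlap, as the plot of Pcdhgc5 shows for H3K27ac.

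At 24 w.p.i. other targets were mixed within this exon. Pu.1 at its start (chr18:37819251-37820050) fell to 9.54 and 8.36 from 89.24 and 36.84 in WT, while the overlapping next site (chr18:37819851-37820800) stood at 83.84 and 37.61 against 5.76 and 18.95. H3K27me3 was higher over chr18:37820451-37821050, at 70.99 and 59.8 against 31.74 and 41.41, and lower over the adjoining chr18:37821051-37821850, at 47.06 and 63.48 against 112.03 and 127.08. Each of these sites was separate.

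H3K27me3, the Polycomb mark, was lower in DKO at 8 w.p.i. at the listed sites of the alpha part. All 18 alpha sites were lower in DKO than in WT and all 18 were separate. Over the whole set 14 of 37 sites were higher, 37.8% (24.1 to 53.9%) against 55.1% of autosomal sites, with 12 separate upward and 22 downward beside 46.8% and 42.5%. The 18 sites comprised 7 of alternate genes, 3 of C-type genes, 3 over constant exons and 5 elsewhere. Beta genes had 1 higher and 3 lower, and gamma genes 13 higher and 2 lower.

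The summed alpha sites were 392.84, 416.6 and 350.89 in DKO and 1080.22, 1081.55 and 1006.09 in WT, a log2 ratio of -1.45. The summed gamma sites were 507.18, 696.08 and 525.22 against 327.14, 300.73 and 264.94, a log2 ratio of 0.95. Both were separate and opposite. Of the alpha C-type genes, Pcdhac1 (chr18:37090301-37092450) had 47.55, 63.76 and 65.38 against 154.82, 162.14 and 138.62, a log2 ratio of -1.35. Pcdhac2 had 80.38, 49.78 and 71.92 against 150.44, 132.25 and 154.27, a log2 ratio of -1.10. In both exons the highest DKO library lay below the lowest WT library.

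All 3 constant-exon sites of the alpha part were lower too. Over the second constant exon (chr18:37159051-37160100) DKO had 1.13, 1.75 and 1.09 and WT 20.12, 16.3 and 12.3, a log2 ratio of -2.89. Over the third (chr18:37185101-37186400) the values were 21.51, 18.34 and 14.17 against 63.85, 73.37 and 34.65, a log2 ratio of -1.62. A further site at the end of that exon (chr18:37187551-37188550) had 4.53, 3.49 and 8.72 against 18.37, 44.39 and 17.89. No gamma constant exon had a listed H3K27me3 site. In the gamma part Pcdhgc3 (chr18:37808951-37809850) was higher, at 127.93, 124.02 and 101.34 against 71.72, 69.75 and 71.54, a log2 ratio of 0.72.

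Here the direction followed base composition less closely than at 3 w.p.i. among autosomal sites. Of H3K27me3 sites under 45% G and C 67.4% were higher in DKO, 47.2% between 45 and 50%, 38.7% between 50 and 55% and 50.0% at 55% and over. At the protocadherin genes 11 of 17 sites under 45% were higher, and 3 of 20 richer sites. By class the richer sites were higher in 3 of 9, 0 of 6 and 0 of 5. The part of composition in the difference between the alpha and gamma parts was not tested. Promoters of the non-clustered protocadherins had 0 higher and 9 lower H3K27me3 sites in this table, at 6 of 12 genes.

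Against Daxx-KO, which shares the DKO libraries with the comparison above, H3K27me3 in DKO was lower at 23 of 33 sites, with 30.3% higher (17.4 to 47.3%) beside 65.0% of autosomal sites. Separate sites were 10 upward and 21 downward, against 55.5% and 28.7% of the table. They were 5 and 23 with libraries scaled to equal totals, for which the autosomal counterpart was not computed. The alpha part had 2 higher and 13 lower, all separate. Its sums were 246.1, 276.43 and 228.27 in DKO and 701.76, 556.47 and 511.31 in Daxx-KO, a log2 ratio of -1.23. Pcdhac1 (chr18:37090351-37091200) had 40.18, 42.22 and 43.42 against 126.84, 97.82 and 57.25, and the alpha constant exon (chr18:37158801-37159750) 0, 1.01 and 2.48 against 11.53, 19.56 and 17.77. The gamma part went the other way from the comparison with WT, with 4 higher and 7 lower and sums of 222.24 to 291.55 in DKO against 339.56 to 471.14 in Daxx-KO. Among gamma C-type genes, a site at the start of Pcdhgc4 (chr18:37814351-37815000) had 23.86, 42.22 and 73.2 against 92.25, 83.69 and 86.86.

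At 24 w.p.i. H3K27me3 was higher in Daxx-KO than in WT at 51 of 65 sites, 78.5% (67.0 to 86.7%), although 41.2% of autosomal sites were. All 65 were separate, 51 upward and 14 downward, where the table held 40.8% and 56.8%. Alternate alpha genes had 13 higher and 1 lower, gamma A genes 9 and 0, gamma B genes 6 and 3, gamma C-type genes 5 and 1, and beta genes 7 and 4. Alpha sums were 3403.76 and 3383.59 against 2145.41 and 2186.01, and gamma sums 6990.2 and 6714.7 against 4244.14 and 5077.38, with log2 ratios of 0.65 and 0.56.

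Pcdha9 (chr18:36999101-37000800) had 567.16 and 592.45 in Daxx-KO against 226.86 and 421.21 in WT, a log2 ratio of 0.84. The exon of Pcdhgc4, which reaches within 1 kb of the Pcdhgc5 start (chr18:37816401-37818700), had 1011.48 and 953.99 against 506.01 and 701.07, a log2 ratio of 0.70. Pcdhb22 (chr18:37521251-37522500) was an exception, at 39.88 and 32.2 against 147.51 and 144.21, a log2 ratio of -1.99. Of autosomal H3K27me3 sites 50.7% were higher under 45% G and C, 36.8% between 50 and 55% and 23.2% above that, where 14 of 20, 19 of 20 and 4 of 6 protocadherin sites were higher. The promoters of non-clustered protocadherins had 1 higher and 6 lower sites. H3K9me3 and H3K27me3 sites overlapped in 37 pairs at 24 w.p.i., of which 24 pointed the same way, or 64.9%, beside 42.9% of autosomal pairs. Both marks came from the same mice. Here 63.4% of H3K9me3 and 78.5% of H3K27me3 sites were higher, against 48.1% and 41.2% of autosomal sites. The 2 shares of agreeing pairs are therefore not alike, and whether the marks moved together was not tested.

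**Figure D5:**
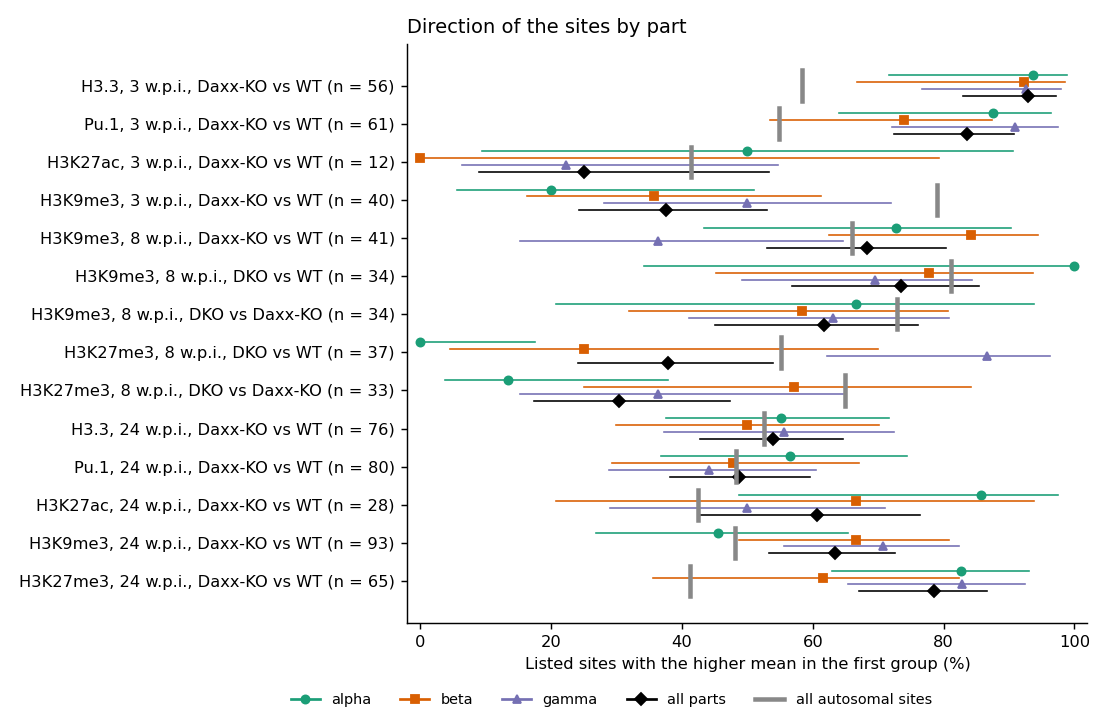
Share of listed sites with the higher mean in the group named first (%), for the alpha, beta and gamma part and for all 3, with Wilson 95% intervals as lines (counting error only), beside the share of all autosomal sites of the same table (grey bar); n is the number of protocadherin sites. The share for all parts is 92.9% for H3.3 and 37.5% for H3K9me3 at 3 w.p.i., beside grey bars at 58.4% and 78.9%.

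The share of higher H3K9me3 sites in DKO at 8 w.p.i. was below the autosomal share in both comparisons, as the plot of shares shows. Separate upward sites were also less frequent than among autosomal sites. Against WT 25 of 34 sites were higher, 73.5% (56.9 to 85.4%) beside 81.2%, with 11 separate upward and 9 downward, 32.4% and 26.5%, beside 47.7% and 17.9%. With libraries scaled to equal totals, 8 were separate upward and 9 downward, and the autosomal counterpart was not computed. The DKO libraries differed widely in depth, with 0.67, 0.21 and 3.28 reads per window, and the share was 55.9% without DKO replicate 2 and 55.0% among separate sites only. Pcdhga12 (chr18:37766701-37767950) was lower, at 25.87, 34.54 and 29.13 against 128.05, 44.82 and 87.37. Pcdhgb8 (chr18:37760401-37762000) was higher, at 51.73, 55.26 and 30.67 against 13.93, 13.79 and 17.19. Both were separate, and the direction again went with composition, since 17 of 18 sites under 45% G and C were higher and 1 of 6 at 50% and over.

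Against Daxx-KO, with the same DKO libraries, 21 of 34 H3K9me3 sites were higher in DKO, 61.8% (45.0 to 76.1%) beside 72.9%, or 50.0% without DKO replicate 2. There were 11 separate upward and 10 downward, where the table held 44.8% and 24.8%. Scaling the libraries to equal totals gave 5 upward and 11 downward. How many autosomal sites were separate after this scaling was not computed. Pcdha1 (chr18:36931351-36932750) had 12.21, 13.07 and 11.66 in DKO and 52.11, 58.89 and 29.22 in Daxx-KO. Pcdhb22 (chr18:37519901-37520800) had 8.14, 6.54 and 10.21 against 39.7, 53.4 and 18.45, and Pcdhga12 (chr18:37766701-37768700) 36.64, 98.06 and 39.36 against 190.07, 150.23 and 111.49. These 3 exons were lower in every DKO library.

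H3K27ac, a mark of active promoters and enhancers, was sparse at these genes at 3 w.p.i., with 12 sites, 1.79 per 100 kb against 4.12 across the autosomes. Of these 3 were higher and 9 lower in Daxx-KO, all separate, beside 39.2% separate upward and 58.4% downward in the table, and 25.0% higher (8.89 to 53.2%) beside 41.3%. Counts were low, with a median of 0 to 10.5 reads per site and library. In the gamma part 2 sites were higher and 7 lower. Its 3 constant-exon sites were all lower. At the first (chr18:37825051-37825650) Daxx-KO had 0 and 0 and WT 9.67 and 6.62, at the second (chr18:37833251-37833850) 0 and 0 against 12.89 and 8.83, and at the third (chr18:37839501-37840200) 4.84 and 1.7 against 15.04 and 14.34.

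Between the constant exons an intronic site (chr18:37829601-37830400) had 3.88 and 1.7 in Daxx-KO against 26.86 and 11.03 in WT. It was lower again at 24 w.p.i. (chr18:37829301-37830500), at 10.49 and 2.93 against 69.26 and 85.43, a log2 ratio of -3.35. The groups did not overlap at either time. In the alpha part Pcdha6 (chr18:36968701-36969300) was the 1 higher site at 3 w.p.i., with 7.75 and 13.59 against 0 and 0.

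At 24 w.p.i. H3K27ac had 28 sites, 17 higher and 11 lower, all separate, 60.7% higher (42.4 to 76.4%) beside 42.5%, and 41.3% upward and 56.0% downward in the table. Variable exons had 11 higher and 3 lower, whereas gamma sites outside exons and starts had 3 higher and 8 lower. Autosomal sites were higher in 34.3%, 40.6%, 48.1% and 65.5% of cases across the composition classes, from under 45% to 55% and over. In the same order protocadherin sites were higher in 0 of 3, 4 of 6, 7 of 12 and 6 of 7. The part of composition was not tested. Pcdhgc3 at its start (chr18:37805901-37806750) had 80.93 and 43.91 against 8.94 and 21.36, a log2 ratio of 1.97. Pcdha4 (chr18:36954301-36955450) had 67.44 and 40.98 against 21.22 and 15.82, a log2 ratio of 1.50. Of the constant exons, the gamma exon whose H3K27ac was lower at 3 w.p.i. (chr18:37824401-37825350) now had 71.93 and 49.77 against 25.69 and 11.07, and the next exon (chr18:37833351-37834300) 45.71 and 65.87 against 33.51 and 18.99, but a site overlapping the first of them (chr18:37825101-37825950) pointed downward, at 39.71 and 16.1 against 61.44 and 56.17. The alpha sum, at 259.27 and 223.95 against 140.75 and 83.85, was higher, with a log2 ratio of 1.10. The gamma sum, over 18 of the 28 sites, was lower, at 586.71 and 586.94 against 674.7 and 732.53, a log2 ratio of -0.26.

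H3.3 and Pu.1 at 24 w.p.i. had many sites and no common direction. H3.3 was higher at 41 of 76 sites, 53.9% (42.8 to 64.7%) beside 52.6%, with 41 separate upward and 35 downward, 53.9% and 46.1%, beside 51.3% and 47.0% of the table. Pu.1 was higher at 39 of 80, 48.8% (38.1 to 59.5%) beside 48.2%, with 39 separate upward and 40 downward, beside 46.9% and 51.3%. Their densities, 11.3 and 11.9 per 100 kb, were also near the autosomal 10.4 and 10.3. Sites of opposite direction stood within 1 kb of each other for 17 of the 76 H3.3 sites and 19 of the 80 Pu.1 sites.

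Single exons nevertheless differed widely at 24 w.p.i. Pcdhb8 at its start (chr18:37355201-37355900) had H3.3 of 79.49 and 187.88 in Daxx-KO against 1.84 and 0 in WT. Pcdhgb6 (chr18:37741651-37742850) had 2.21 and 0 against 131.91 and 67.69. For Pu.1, Pcdhga1 (chr18:37663051-37664350) had 192.22 and 146.27 against 10.07 and 18.95. These exons moved in opposite directions and were separate. Pcdhb7 (chr18:37342051-37343500) lost Pu.1, at 1.36 and 2.09 against 102.19 and 87.36, and the constant exons of the gamma part held both a gain (chr18:37824951-37825700, 136.32 and 79.4 against 17.27 and 6.32) and a loss (chr18:37833051-37834050, 2.04 and 4.18 against 83.48 and 73.68).

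For Pu.1 at 3 w.p.i., both sites over the last gamma constant exon were higher, at 77.19 and 98.09 against 50.66 and 51.14 (chr18:37839401-37840550) and at 63.01 and 59.18 against 29.77 and 44.75 (chr18:37841101-37841700). H3.3 over constant exons at 24 w.p.i. was lower in both parts, at 16.56 and 15.85 against 122.69 and 66.75 in the alpha part (chr18:37185301-37186150) and at 15.46 and 0 against 54.43 and 67.69 in the gamma part (chr18:37840051-37840950). The groups were separate at each of these 4 sites. H3K9me3 at 24 w.p.i. split within the gamma part, with the first constant exon (chr18:37824451-37825200) at 20.4 and 50.03 against 12.44 and 3.75 and the second (chr18:37833351-37834200) at 0.64 and 3.13 against 68.4 and 23.43.

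Genes around and related to the clusters were counted by promoters, within 1 kb of a start. Regulators of the clusters (Ctcf, cohesin subunits, Smchd1, DNA methyltransferases, Setdb1 and others, 14 genes) had 14 higher and 1 lower H3.3 site and 17 and 1 Pu.1 sites at 3 w.p.i., and the 4 neuron markers had 8 and 2, then 8 and 1, in tables where 58.4% and 54.9% of autosomal sites were higher. No share over all promoters was computed. The H3K27ac sites of the regulators were 4 higher and 9 lower at 3 w.p.i. and 19 and 12 at 24 w.p.i. Of autosomal H3K27ac sites, 41.3% were higher at 3 w.p.i. and 42.5% at 24 w.p.i. Non-clustered protocadherins had 7 higher and 1 lower H3.3 sites and 10 and 2 Pu.1 sites at 3 w.p.i. The 12 genes between and beside the clusters, such as Taf7, Slc25a2 and Diaph1, had 3 higher and 2 lower H3.3 sites and 6 and 1 Pu.1 sites at 3 w.p.i., and 9 higher and 18 lower H3K27ac sites at 24 w.p.i. None of the regulators had a listed H3K9me3 site at 3 or 8 w.p.i., and 5 of them had 6 higher and 2 lower at 24 w.p.i. At that time 48.1% of autosomal H3K9me3 sites were higher.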

How the data were processed

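CUT&Tag libraries of mouse HSPCs were processed by the authors before deposit. According to the submitters' processing notes, CASAVA 1.8.4, cutadapt 1.13, STAR 2.5.3, bedtools and the mm10 build were used, with their settings for these libraries not given in the sources used here. Per the file headers, diffReps 1.55.6 slid windows of 600 bp in steps of 50 bp, with a fragment size of 100 bp and a window p-value cutoff of 0.0001, and no background library was named. The signal values used are the normalized counts deposited by the authors, that is reads divided by the normalization constant printed in each header, listed per library and site. Mean reads per window were 0.20 to 33.78 per library, total reads are not given, and intervals cover counting error only. Reads came largely in even numbers, since 67.5% of 1142 library values of 1 to 20 reads were even. The 24-week tables leave out X and Y. Columns with the authors' own group means, fold changes and p-values were not used, and there were 0 other columns of per-sample values.

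Libraries were assigned to groups by the labels and to positions in a table by the mouse numbers in its header. The labels and headers name separate mice, except for WT replicate 1 of the 3-week H3.3 and Pu.1 tables. WT and Daxx-KO mice of the 8-week H3K9me3 and H3K27me3 tables were the same, as were all mice of the 24-week tables. Sites overlapping the genes and 5 kb each side were taken with Python 3.11.15, numpy 2.4.6, pandas 2.3.3 and scipy 1.17.1, and drawn with matplotlib 3.10.9. Functions were tested on 2000 simulated sites, where 10 of 10 checks passed. Named sites were, per table and part, those with the largest difference of group means in each direction among separate sites, sites over constant exons, and sites overlapping 1 of the same mark at another time. A site was named by a start within 1 kb or its variable exon, otherwise by the nearest start. The genes, marker lists and naming rule were chosen with earlier results of these data known. Alternatives were no flank, the whole span, a mean of at least 20, separate sites only, rescaled libraries, merged sites, a pseudocount of 5 in place of 1, other overlap rules and leaving out each library. Sequences of this chromosome are not reported here.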

Additional observations from a re-analysis of the deposited data

Results flagged for a closer look

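The summed H3K9me3 of the listed beta sites in Daxx-KO against WT changed direction between times, with log2 ratios of -0.42 at 3 w.p.i., 1.07 at 8 w.p.i. and 0.47 at 24 w.p.i., every library of one genotype lying on one side of the other each time. For the gamma sites the log2 ratios were -0.33, -0.61 and 0.68. The sites were listed for differing between these same libraries, which favours separate sums. Of autosomal sites 99.6%, 89.0% and 97.2% were separate at these times, so the separation adds no support to the change of direction. The lists of sites and the mice differ between the times, and the differences between the times were not tested.

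Some places were listed at 2 times with separate groups in opposite directions in Daxx-KO against WT. There were 14 such overlapping pairs of H3.3 sites, 19 of Pu.1, 2 of H3K27ac and 24 of H3K9me3. All overlapping pairs numbered 28 for H3.3, 31 for Pu.1 and 6 for H3K27ac. For H3K9me3 they numbered 8 (3 and 8 w.p.i.), 23 (3 and 24 w.p.i.) and 18 (8 and 24 w.p.i.). Autosomal pairs pointed the same way in 51.2%, 48.1% and 59.8%, and for H3K9me3 in 77.9%, 56.8% and 60.0%. Opposite pairs were thus common across the genome too. These differences between times were not tested either.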

How the results depend on the processing

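No paired analysis was possible because the results come from no test. No log2 ratio of sums with separate groups changed sign. The balance of separate H3K9me3 sites in both DKO comparisons turned over under scaling, to 8 upward and 9 downward against WT and 5 and 11 against Daxx-KO. Separate autosomal sites were not counted after scaling, so whether this turn was particular to the protocadherin sites is not known. The share of higher sites moved beyond its interval in 1 of 14 comparisons only, H3K9me3 in DKO against WT, to 55.0% among separate sites, and between 55.9% and 73.5% when single libraries were left out. The interval, which covers counting error only, served as a yardstick and not as a test. Scaling libraries to equal sums moved the log2 ratio of the summed sites for H3.3 at 3 w.p.i. to 0.65 (beta) and 0.85 (gamma), for Pu.1 at 3 w.p.i. to 0.47 (beta), for H3K9me3 at 3 w.p.i. to -0.67 (beta) and -0.57 (gamma), at 8 w.p.i. to 0.64 (beta) and -1.04 (gamma) and in DKO against WT to 0.52 (beta). It moved H3K27me3 in DKO against WT to -1.68 (alpha) and -1.22 (beta), against Daxx-KO to -1.55 (alpha) and -0.92 (gamma), H3K27ac at 24 w.p.i. to -0.13 (beta) and -0.36 (gamma) and H3K27me3 at 24 w.p.i. to 0.77 (alpha). A pseudocount of 5 moved H3K27ac at 3 w.p.i. in the beta part to -1.77. Pairs of sites within 1 kb, in place of overlapping ones, numbered 181, of which 93 pointed the same way. The causes were not tested. Of the log2 ratios of sums, 41 of 42 kept within the spread with the other pseudocount and 27 of 42 after scaling. Without DKO replicate 2 the gamma sum of H3K9me3 in DKO against WT had a log2 ratio of -0.38 in place of 0.31. A minimum mean of 20 left no H3K27ac site at 3 w.p.i. Sites with few reads, as for H3K27ac at 3 w.p.i., rest on counts near 0.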

Other observations

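H3K27ac and H3K9me3 sites at 24 w.p.i. overlapped in 13 pairs, of which 6 pointed the same way, beside 48.5% of autosomal pairs. H3.3 and Pu.1 sites at 24 w.p.i. overlapped in 27 pairs, of which 14 did, beside 50.5%. Both counts were near the autosomal shares. Pcdhac1, the first alpha C-type gene, was listed at 24 w.p.i. with H3.3 of 0 and 0 in Daxx-KO against 72.88 and 32.9 in WT, beside Pu.1 of 31.35 and 34.48 against 0 and 13.68. Pcdhac2 had Pu.1 of 62.03 and 108.66 against 17.27 and 57.89 and H3K27ac of 32.22 and 23.42 against 4.47 and 4.75. These sites were chosen after their values were seen.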
